A study of Mus musculus with 8 samples.

Results

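Interferon-stimulated genes are the antiviral and immune genes that cells switch on in response to interferons. A list of 39 such genes, set by name with earlier results of these data known, was followed across lines of mouse embryonic stem cells with mutations of Gtf2i, which encodes the transcription factor TFII-I, or of Hprt, which encodes a purine salvage enzyme. Of these, 36 were found among the 18193 genes that had a probe set assigned to a single symbol. The other 3 were dropped: Isg15, whose only probe set is shared with another symbol, Ifi44, for which no probe set was listed, and Rigi, for which the probe table carries only the older symbol Ddx58. Expression was measured on 8 Affymetrix arrays in 4 groups of 2 arrays. The wild-type cells carried no labelled mutation, and their line is not named. The exon 2 mutant (Δexon2/+) was derived from the R1 line by gene targeting and is heterozygous for loss of exon 2 of Gtf2i. The Hprt knockout (HPRT -/-) carried no Gtf2i mutation, and its parent line is not given. The trap line (HPRT -/-:GTF2I +/-) was a gene-trap derivative of AB2.2 cells. Cells of all groups were grown with LIF and serum replacement on a monolayer of feeder cells, so each sample can hold RNA of feeder cells as well as of stem cells. The labels call the arrays of a group biological replicates but do not mention separate cultures, and p-values here measure only the spread between these arrays. Each mutation is represented by 1 line, and line, parent and any processing batch cannot be told apart from the mutation.

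Type I interferons bind the receptor made of Ifnar1 and Ifnar2, which activates the kinases Jak1 and Tyk2 and brings Stat2 and Irf9 into a complex that binds the interferon-stimulated response element of target genes. Interferon gamma acts through Ifngr1 and Ifngr2 on genes that carry a gamma-activated site. Pluripotent stem cells are known to respond weakly to interferon, whereas fibroblasts, the usual feeder cells, respond strongly.

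Of the 36 genes, 26 were in the RefSeq promoter table (GRCm38.p6), which gives 250 bases before to 50 bases after each start. The promoters shown are those of the 5 genes in that table with the largest differences between Hprt knockout and wild-type. Those of Irf1, which did not pass in that comparison, and of Ifitm1, which was higher in the Hprt knockout, are added. They let the interferon motifs be read beside the values. Capitals mark the core of the response element, searched as GAAA followed by any 2 bases and a second GAAA, and TTCNNNGAA, the core of the gamma-activated site. Both strands were searched, so the first can read as TTTC, any 2 bases and TTTC again, and the second is its own reverse complement. Overlapping matches are capitalised as 1 stretch. The sequences are written 5′ to 3′ on the strand of the gene.
Ifit1, chr19:34640639-34640938, plus strand: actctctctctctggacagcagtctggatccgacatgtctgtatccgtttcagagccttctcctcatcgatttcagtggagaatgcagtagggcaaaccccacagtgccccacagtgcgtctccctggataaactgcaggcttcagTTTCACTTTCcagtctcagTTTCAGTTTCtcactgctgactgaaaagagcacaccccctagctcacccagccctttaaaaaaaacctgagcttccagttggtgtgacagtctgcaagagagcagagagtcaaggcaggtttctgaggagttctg
Ifi202b, chr1:173982795-173983094, minus strand: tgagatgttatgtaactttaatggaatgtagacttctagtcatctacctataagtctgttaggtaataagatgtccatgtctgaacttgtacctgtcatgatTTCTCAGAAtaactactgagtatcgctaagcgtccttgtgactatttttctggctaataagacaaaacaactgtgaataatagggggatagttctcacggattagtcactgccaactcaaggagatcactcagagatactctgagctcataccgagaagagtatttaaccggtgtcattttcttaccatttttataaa
Ifit3, chr19:34583279-34583578, plus strand: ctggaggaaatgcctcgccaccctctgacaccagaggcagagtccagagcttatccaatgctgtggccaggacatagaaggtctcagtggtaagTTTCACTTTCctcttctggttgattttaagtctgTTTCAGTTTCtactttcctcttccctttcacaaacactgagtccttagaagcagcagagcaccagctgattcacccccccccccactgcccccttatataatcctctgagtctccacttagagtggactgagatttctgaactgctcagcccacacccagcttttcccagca
Oasl2, chr5:114896684-114896983, plus strand: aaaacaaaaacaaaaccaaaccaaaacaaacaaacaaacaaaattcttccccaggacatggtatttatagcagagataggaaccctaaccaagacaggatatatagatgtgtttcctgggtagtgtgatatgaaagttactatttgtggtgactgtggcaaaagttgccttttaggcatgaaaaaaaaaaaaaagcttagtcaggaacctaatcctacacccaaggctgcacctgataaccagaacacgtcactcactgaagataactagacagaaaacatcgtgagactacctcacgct
Gbp3, chr3:142559794-142560093, plus strand: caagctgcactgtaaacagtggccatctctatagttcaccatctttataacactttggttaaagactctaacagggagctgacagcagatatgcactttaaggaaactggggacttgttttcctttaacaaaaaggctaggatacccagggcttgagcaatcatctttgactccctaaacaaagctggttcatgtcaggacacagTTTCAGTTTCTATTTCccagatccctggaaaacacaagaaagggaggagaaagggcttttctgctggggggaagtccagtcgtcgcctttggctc
Irf1, chr11:53769764-53770063, plus strand: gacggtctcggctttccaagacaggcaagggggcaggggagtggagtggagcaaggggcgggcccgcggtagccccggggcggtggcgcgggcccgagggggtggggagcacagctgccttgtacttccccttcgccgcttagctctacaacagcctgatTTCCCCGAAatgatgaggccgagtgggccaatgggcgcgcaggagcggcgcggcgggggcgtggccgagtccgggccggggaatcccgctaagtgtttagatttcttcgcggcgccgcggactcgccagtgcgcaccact
Ifitm1, chr7:140967826-140968125, plus strand: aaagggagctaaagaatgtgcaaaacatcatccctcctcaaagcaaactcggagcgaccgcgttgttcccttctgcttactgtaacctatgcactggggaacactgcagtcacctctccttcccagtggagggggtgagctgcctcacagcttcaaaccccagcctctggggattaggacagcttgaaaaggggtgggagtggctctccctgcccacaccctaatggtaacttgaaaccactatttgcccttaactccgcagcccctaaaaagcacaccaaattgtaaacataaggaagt

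The promoter of Ifit1 (difference of -7.74 between Hprt knockout and wild-type) holds 2 response element cores, starting 104 and 85 bases before the gene's start. Ifit3 (-6.37) holds 2 as well, starting at 156 and 122 bases before the start, and in the Gbp3 promoter shown (-5.20) the 2 matches overlap, while its other promoter in the table has neither core. Ifi202b (-7.18) has a single gamma-activated site core and no response element core in this window, and Oasl2 (-5.21) has neither core. Ifit1, Ifi202b and Oasl2 lay under the filter level described next in the Hprt knockout, so the sizes of their differences, and their order, depend on the array's background. Irf1 has a gamma-activated site core in the first of its promoters, and Ifitm1, the member that was higher in the Hprt knockout than in wild-type, has neither. The response element core was present in the promoter of 15 of the 26 genes (57.7%), against 3.99% of all 27025 genes in the table. The gamma-activated site core was present in 10 of 26 (38.5%), against 9.55% of all genes. The 14 tested members with the response element core had a median log2 difference between Hprt knockout and wild-type of -3.21, from -7.74 to -0.31. The 11 without it had a median of -2.94, from -7.18 to 0.86, so both groups spanned nearly the whole range. These matches are a description of the letters in the window and show no binding.

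The arrays of a group correlated at 0.997 to 0.998 over the 13819 genes that passed the filter on low values. To pass, a gene's log2 intensity had to exceed the 40th percentile of an array, on average 5.35, for 2 arrays or more. The Hprt knockout arrays stood apart, with correlations of 0.866 with wild-type, 0.888 to 0.889 with trap and 0.918 to 0.920 with the exon 2 mutant. Hprt was labelled as mutated in the Hprt knockout and trap groups, and its mean log2 level was 10.04 and 10.74 there against 12.08 in wild-type and 12.25 in the exon 2 mutant. Gtf2i was at 10.12 in wild-type and 10.09 in trap, at 10.48 in the exon 2 mutant and at 10.90 in the Hprt knockout. It was lower in trap than in the Hprt knockout and higher in the exon 2 mutant than in wild-type (adjusted p = 0.00102), and the position of the probes relative to either mutation was not analysed here. All 12 embryonic stem cell markers lay above the filter level in all groups. Against wild-type, 9 of the 12 were higher and 1 lower in the exon 2 mutant (median 0.27), 8 higher and 3 lower in the Hprt knockout (median 0.39) and 8 higher in trap (median 0.29), and their part in the results below was not tested.

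Fibroblast signal moved with the groups and stands beside every result below. Of 22 markers of fibroblasts, such as collagens, Lum and Dcn, 21 were found and tested, and all 21 lay above the filter level in wild-type, exon 2 mutant and trap. Their summed linear intensity was 135350 to 136265 in wild-type, 97518 to 98982 in the exon 2 mutant, 99930 to 100504 in the trap line and 6535 to 6703 in the Hprt knockout. The Hprt knockout arrays thus carried far less fibroblast signal than the others, and Lum and Fap lay below the filter level on both of them. The summed intensity of the 36 interferon-stimulated genes ran in the same order over all groups. It was 63797 to 63966 in wild-type, 48793 to 49217 in the exon 2 mutant, 50002 to 50108 in trap and 14036 to 14269 in the Hprt knockout. The part of feeder cells in the results on interferon-stimulated genes was not tested, and in these bulk samples fewer cells of a type and less RNA per cell cannot be told apart. Of 10 macrophage and leukocyte markers, Ptprc, Itgam, Aif1 and Tyrobp lay below the filter level in every group. The summed level of the 10 was 1109 to 1136 in wild-type, 1297 to 1299 in trap, 852 to 866 in the exon 2 mutant and 760 to 767 in the Hprt knockout. Of the 6 that were tested, 3 were lower and 1 higher in the Hprt knockout, and the largest difference was that of the lysozyme gene Lyz2, -3.34 there and 3.40 for trap against the Hprt knockout. In the exon 2 mutant 3 of the 6 were lower and 1 higher, with Lyz2 at -0.89, and the part of such cells in the results was not tested.

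The interferon-stimulated genes were expressed in wild-type cells without any labelled interferon treatment. In wild-type, exon 2 mutant and trap, 35 of the 36 members lay above the filter level on both arrays, and Oas3 lay below it. In the Hprt knockout 23 members did so and 10 lay below it on both arrays. Those 10 were Ifit1, Oas3, Oasl2, Mx1, Iigp1, Ifih1, Dhx58, Usp18, Ifi202b and Ifi204. The filter left 35 members for testing, all but Oas3, and 9 of them passed it only through the 6 arrays outside the Hprt knockout, so that they had to differ from it. The Hprt knockout was the lowest of the 4 groups for 33 of the 36 members, and wild-type was the highest for 27. For 18 members the order from low to high was Hprt knockout, trap, exon 2 mutant, wild-type. For 8 members (Ifit1, Ifit2, Ifitm3, Gbp2, Iigp1, Ifih1, Ifi202b and Ifi204) that order was Hprt knockout, exon 2 mutant, trap, wild-type.

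**Figure D1:**
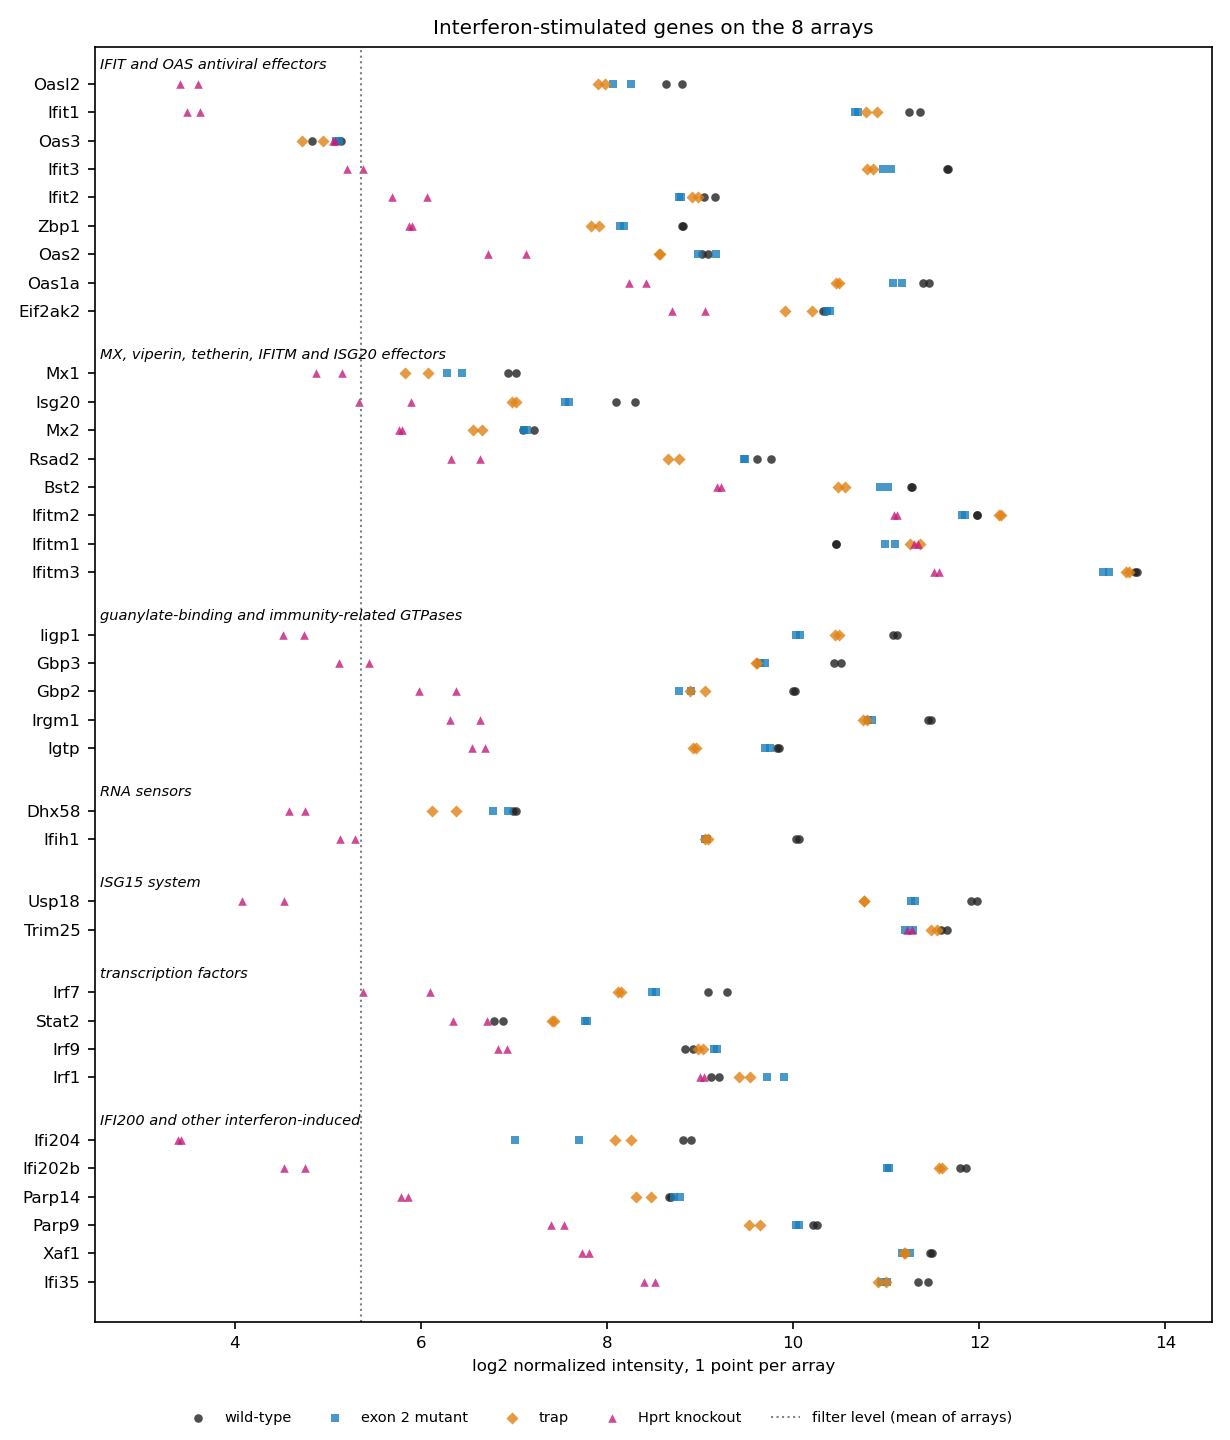
Log2 normalized intensity (horizontal axis) of each found member on each array, 1 point per array, with colours and symbols for the 4 groups, 2 arrays each; the dotted line is the mean filter level of 5.35. The Hprt knockout triangles lie lowest for 33 of 36 genes, while Ifitm1 is lowest in wild-type and Oas3 stays below the line in every group.

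The Hprt knockout was compared with wild-type because trap, whose label also gives HPRT -/-, is set against the Hprt knockout below. Of the 35 members tested, 33 were lower in the Hprt knockout, against 25.1% of all genes called lower. Ifitm1 was higher, against 46.4% of all genes called higher, and Irf1 did not pass. The median log2 fold change of the members was -2.94, and that of all genes tested was 0.16. The 33 and this median include the 9 members that passed the filter only through the 6 arrays outside the Hprt knockout. Their direction here was set by the filter. In the same comparison the 21 fibroblast markers were all lower, with a median of -4.64. Among them, Lum and Fap passed the filter only through the other groups, so their direction was set by it too.

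Trap was compared with the Hprt knockout, the group that carries the same HPRT -/- label. Here 34 of 35 members were higher in trap, against 26.6% of all genes called higher. None was lower by limma, nor at an unadjusted p under the same threshold, against 41.8% of all genes called lower. The member that did not pass was Ifitm1, with a difference of -0.01 (adjusted p = 0.886). The members' median was 2.23 and that of all genes -0.13. The 34 and this median include the 9 members that passed the filter only through the 6 arrays outside the Hprt knockout. Their direction was set by the filter here too. All 21 fibroblast markers were higher too, with a median of 4.07, and for Lum and Fap this direction was again set by the filter. This comparison and the one before share the Hprt knockout arrays, so a low level there enters both with opposite sign.

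Comparing the exon 2 mutant with wild-type asks what goes with heterozygous loss of this exon of Gtf2i. Of 35 members 23 were lower, against 23.1% of all genes called lower. Those higher were Ifitm1, Irf1, Irf9 and Stat2, against 32.5% of all genes called higher, and 8 members did not pass. The median was -0.32, against 0.03 for all genes. The differences were small beside those of the Hprt knockout, reaching -1.50 at most, in Ifi204. Of the 21 fibroblast markers 18 were lower in this comparison as well, with a median of -0.48. So were 5 of 6 primitive endoderm markers, with a median of -0.75, whose part in the result was not tested. The count of lower members was 23 without both Hprt knockout arrays too, with 22 of the calls shared. It was 18 without exon 2 mutant replicate 1.

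Trap was also compared with wild-type, which carries neither mutation. Lower in trap were 26 of 35 members, against 14.6% of all genes called lower. Ifitm1, Ifitm2, Irf1 and Stat2 were higher, against 26.5% of all genes, and 5 members did not pass. The median was -0.65 and that of all genes 0.05. The fibroblast markers were mixed here, with 9 of 21 lower and 3 higher and a median of -0.18. Leaving out both Hprt knockout arrays gave 26 lower and 4 higher members, with 26 and 4 of the calls shared. The comparisons of the Hprt knockout, the exon 2 mutant and trap with wild-type share the wild-type arrays.

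**Figure D2:**
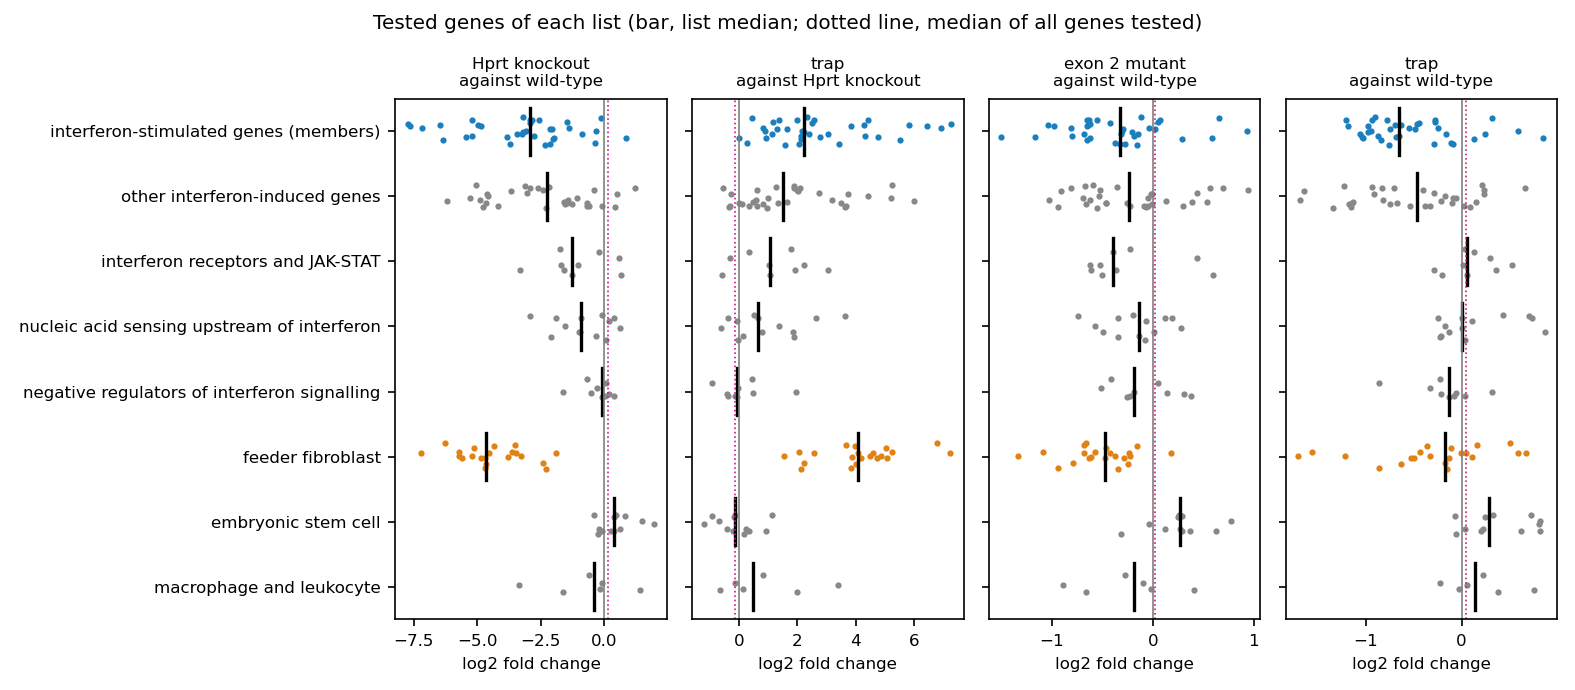
Log2 fold change (horizontal axis, scales differ between panels) of the tested genes of 8 lists in 4 comparisons; each point is a gene, the black bar the list's median and the dotted line the median of all genes tested. Members and fibroblast markers lie to the left in the Hprt knockout (medians -2.94 and -4.64) and to the right for trap against it (2.23 and 4.07), while against wild-type the members' median in trap is -0.65 and that of the fibroblast markers -0.18.

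The IFIT and OAS effectors bind viral RNA or respond to double-stranded RNA. All 8 tested genes of this class were lower in the Hprt knockout than in wild-type, with a median of -3.16 (25.1% of all genes were called lower), and all 8 were higher in trap than in the Hprt knockout, with a median of 2.61 (26.6% of all genes). For Ifit1 and Oasl2 the direction against the Hprt knockout was set by the filter. Against wild-type, 5 were lower in the exon 2 mutant (23.1% of all genes) and 6 in trap (14.6%), and the others did not pass. Ifit1, which binds RNA that lacks host cap methylation, had log2 levels of 11.36 and 11.25 on the wild-type arrays, 10.66 and 10.70 in the exon 2 mutant, 10.90 and 10.79 in trap and 3.49 and 3.63 in the Hprt knockout. The Hprt knockout arrays were far below all others, and the exon 2 mutant and trap arrays lay just below wild-type without overlap. The difference was -7.74 ± 0.07 (SE) between Hprt knockout and wild-type (adjusted p = 4.05e-09), and 7.28 ± 0.07 between trap and Hprt knockout. It was -0.62 ± 0.07 for the exon 2 mutant (adjusted p = 0.000433) and -0.46 ± 0.07 for trap (adjusted p = 0.00271) against wild-type. The Hprt knockout level of Ifit1 lay under the filter level, so the size of its difference depends on the array's background. The difference of 0.16 ± 0.07 between trap and exon 2 mutant fell short of the threshold for Ifit1 (adjusted p = 0.111).

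Ifit3, a partner of Ifit1, was at 11.66 on both wild-type arrays, at 10.97 and 11.05 in the exon 2 mutant, at 10.79 and 10.85 in trap, and at 5.20 and 5.37 in the Hprt knockout. Its groups did not overlap, with the exon 2 mutant lower than wild-type by -0.65 ± 0.07 (adjusted p = 0.000288) and trap by -0.83 ± 0.07 (adjusted p = 0.000185). Ifit2, another RNA-binding member of the family, was at 9.04 and 9.16 in wild-type, 8.80 and 8.78 in the exon 2 mutant, 8.91 and 8.98 in trap, and 6.06 and 5.69 in the Hprt knockout. Ifit2 was lower in the Hprt knockout by -3.23 ± 0.12, whereas -0.32 in the exon 2 mutant fell short of the threshold (adjusted p = 0.0563). It passed under 7 of the alternatives, among them leaving out either Hprt knockout array (-0.32, adjusted p = 0.00737). The difference of -0.16 in trap did not pass.

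The OAS proteins make a second messenger that activates an RNA-degrading enzyme. Oas1a was at 11.46 and 11.39 in wild-type, 11.07 and 11.16 in the exon 2 mutant, 10.50 and 10.46 in trap and 8.42 and 8.24 in the Hprt knockout. Its 4 groups stepped down in that order without overlap, by -0.31 ± 0.07 in the exon 2 mutant (adjusted p = 0.0111), -0.95 ± 0.07 in trap (adjusted p = 0.00014) and -3.10 ± 0.07 in the Hprt knockout, each against wild-type. The call for Oas1a in the exon 2 mutant was lost without wild-type replicate 1 (-0.28, adjusted p = 0.0632) and without exon 2 mutant replicate 1 (-0.26, adjusted p = 0.0578). Oasl2, an OAS-like antiviral protein, fell from 8.63 and 8.80 in wild-type to 3.61 and 3.41 in the Hprt knockout, a difference of -5.21 ± 0.10. Oasl2 was also lower in the exon 2 mutant, by -0.55, and in trap, by -0.78. Oas2 was at 9.05 in wild-type and 9.07 in the exon 2 mutant (means of 2 arrays), a difference of 0.02 ± 0.13 that missed the threshold (adjusted p = 0.901), while it was lower in the Hprt knockout by -2.12 ± 0.13. In the trap line Oas2 was lower by -0.48 (adjusted p = 0.0242). That call was lost when any 1 of the 4 arrays compared was left out: -0.45 (adjusted p = 0.107) without wild-type replicate 1, -0.51 (adjusted p = 0.073) without wild-type replicate 2, -0.49 (adjusted p = 0.09) without trap replicate 1 and -0.48 (adjusted p = 0.0936) without trap replicate 2. Oas3 lay between 4.72 and 5.15 on all 8 arrays, below the filter level, and was not tested.

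Eif2ak2, the kinase PKR that halts translation on sensing double-stranded RNA, had the smallest difference of this class in the Hprt knockout, -1.46 ± 0.13. That rank rests on its brightest probe set, since its other probe sets gave -1.75 and -2.18. On the brightest, Eif2ak2 was at 10.32 and 10.35 in wild-type, 10.37 and 10.40 in the exon 2 mutant, 9.91 and 10.20 in trap and 9.05 and 8.70 in the Hprt knockout. Neither mutant passed against wild-type for Eif2ak2. Zbp1, a sensor of Z-form nucleic acids, was lower than wild-type by -0.65 ± 0.05 in the exon 2 mutant (adjusted p = 0.000104), -0.94 ± 0.05 in trap and -2.92 ± 0.05 in the Hprt knockout. Its other probe set gave 0.00 for the exon 2 mutant, so the first of these differences rests on the brighter probe set, while that probe set gave -0.71 for trap and -1.73 for the Hprt knockout.

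The MX, viperin, tetherin, IFITM and ISG20 effectors, which act on different steps of infection, were more mixed. Of the 8 genes of this class 7 were lower in the Hprt knockout (25.1% of all genes), and 5 of 8 were lower in the exon 2 mutant (23.1% of all genes) and in trap (14.6%) against wild-type. The direction of Mx1 in the Hprt knockout was set by the filter. Rsad2, which encodes viperin, was at 9.61 and 9.76 in wild-type, 9.49 and 9.47 in the exon 2 mutant, 8.77 and 8.66 in trap and 6.33 and 6.63 in the Hprt knockout. Trap lay below wild-type by -0.97 ± 0.11 (adjusted p = 0.000597) and below the exon 2 mutant by -0.76 ± 0.11 (adjusted p = 0.00118). On this probe set of Rsad2 the exon 2 mutant's -0.21 fell short of the threshold (adjusted p = 0.143), while the other 2 probe sets gave -0.41 and -0.30. It passed under cyclic loess (-0.32, adjusted p = 0.0433) and with the mean of all probe sets (-0.31, adjusted p = 0.00728). Bst2, or tetherin, which holds budding virus at the cell surface, was at 11.28 and 11.26 in wild-type and 9.23 and 9.18 in the Hprt knockout. Bst2 was lower than wild-type by -0.30 ± 0.06 in the exon 2 mutant, -0.75 ± 0.06 in trap and -2.07 ± 0.06 in the Hprt knockout.

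Mx1 and Mx2 are GTPases that block virus replication. Mx1 was at 6.94 and 7.02 in wild-type, 6.44 and 6.28 in the exon 2 mutant, 6.08 and 5.83 in trap and 4.87 and 5.15 in the Hprt knockout, so that the 4 groups did not overlap. Its differences from wild-type were -0.62 ± 0.12 (adjusted p = 0.0044), -1.02 ± 0.12 (adjusted p = 0.000785) and -1.97 ± 0.12 in that order. Mx2 was lower in trap by -0.55 ± 0.06 and in the Hprt knockout by -1.37 ± 0.06, and its difference of -0.03 in the exon 2 mutant did not pass (adjusted p = 0.684). Isg20, an exonuclease that degrades viral RNA, was lower in trap by -1.20 ± 0.17, the largest fall of any member in that comparison with wild-type, and in the Hprt knockout by -2.59 ± 0.17. In the exon 2 mutant Isg20 was lower by -0.63 (adjusted p = 0.0159), a call lost without wild-type replicate 2 (-0.53, adjusted p = 0.088), without exon 2 mutant replicate 1 (-0.61, adjusted p = 0.0656) and without exon 2 mutant replicate 2 (-0.65, adjusted p = 0.0519).

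The 3 IFITM proteins, which block virus fusion with the cell, differed from each other. Ifitm1 was at 10.46 on both wild-type arrays, 10.99 and 11.09 in the exon 2 mutant, 11.36 and 11.26 in trap and 11.30 and 11.34 in the Hprt knockout. Wild-type was thus the lowest group for Ifitm1, and trap and Hprt knockout overlapped. It was higher than wild-type by 0.58 ± 0.06 in the exon 2 mutant (adjusted p = 0.000249), 0.85 ± 0.06 in trap (adjusted p = 9.54e-05) and 0.86 ± 0.06 in the Hprt knockout (adjusted p = 1.37e-05). Ifitm3 was at 13.69 and 13.67 in wild-type, 13.39 and 13.32 in the exon 2 mutant, 13.57 and 13.61 in trap and 11.52 and 11.57 in the Hprt knockout. Ifitm3 was lower in the Hprt knockout by -2.14 ± 0.05 and in the exon 2 mutant by -0.32 ± 0.05 (adjusted p = 0.00171), while its difference of -0.09 in trap did not pass (adjusted p = 0.211). Ifitm2 was highest in trap, at 12.23 and 12.21, against 11.97 on both wild-type arrays, 11.81 and 11.85 in the exon 2 mutant and 11.08 and 11.12 in the Hprt knockout. Trap exceeded wild-type by 0.25 ± 0.05 (adjusted p = 0.00597) for Ifitm2. Wild-type in turn exceeded the exon 2 mutant, whose difference was -0.14 (adjusted p = 0.0385), a call that 12 alternatives ended, among them leaving out any single array: the difference then lay between -0.16 (without exon 2 mutant replicate 2, adjusted p = 0.059) and -0.12 (without exon 2 mutant replicate 1, adjusted p = 0.131).

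The guanylate-binding proteins and immunity-related GTPases attack the vacuoles of intracellular pathogens and are known mainly as interferon gamma targets. All 5 were lower in the Hprt knockout, with a median of -4.99 (25.1% of all genes), all 5 were higher in trap than in the Hprt knockout, with a median of 4.30 (26.6%), and all 5 were lower in trap than in wild-type, with a median of -0.87 (14.6%). For Iigp1 the direction against the Hprt knockout was set by the filter. In the exon 2 mutant 4 of 5 were lower, with a median of -0.80 (23.1%). Iigp1 was at 11.12 and 11.07 in wild-type, 10.04 and 10.08 in the exon 2 mutant, 10.49 and 10.45 in trap and 4.52 and 4.74 in the Hprt knockout. For Iigp1 the exon 2 mutant was below trap, by 0.41 ± 0.08 (adjusted p = 0.0044), and both were below wild-type, by -1.04 ± 0.08 and -0.63 ± 0.08. Gbp2 was at a mean of 10.01 on the wild-type arrays, 8.90 and 8.77 in the exon 2 mutant, 8.89 and 9.06 in trap and 5.98 and 6.38 in the Hprt knockout. Arrays of the exon 2 mutant and trap overlapped for Gbp2, and each lay below wild-type, by -1.17 ± 0.13 (adjusted p = 0.000343) and -1.03 ± 0.13 (adjusted p = 0.00103). Its probe set may match more than 1 gene by its design, and a second probe set gave -0.94 and -0.81.

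Gbp3 was at 10.44 and 10.52 in wild-type, 9.70 and 9.65 in the exon 2 mutant, 9.61 and 9.60 in trap and 5.44 and 5.12 in the Hprt knockout, and Irgm1, which helps to mark vacuoles, was at 11.44 and 11.49, 10.85 and 10.80, 10.75 and 10.79, and 6.32 and 6.63 in the same order. Both genes were clearly lower in the Hprt knockout, by -5.20 ± 0.10 and -4.99 ± 0.10, and lower than wild-type by 0.64 to 0.87 in size in both mutants, which did not differ from each other past the threshold. Igtp, also called Irgm3, was lower in trap by -0.90 ± 0.06 (adjusted p = 8.82e-05), but its exon 2 mutant arrays, at 9.75 and 9.70, lay only -0.11 below the 9.83 and 9.85 of wild-type (adjusted p = 0.162). Under cyclic loess that difference of Igtp was -0.23 and passed (adjusted p = 0.0216). The trap line was below the exon 2 mutant for Igtp by -0.78 ± 0.06 (adjusted p = 0.000114).

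The RNA sensors detect viral RNA in the cytoplasm and lead to interferon production. Ifih1, which encodes MDA5, was at 10.03 and 10.06 in wild-type, 9.08 and 9.05 in the exon 2 mutant, 9.08 and 9.05 in trap and 5.13 and 5.29 in the Hprt knockout. Exon 2 mutant and trap arrays overlapped for Ifih1, and both groups differed from wild-type by -0.98 ± 0.06 (adjusted p = 4.24e-05 and 7.36e-05). The Hprt knockout differed from it by -4.83 ± 0.06. Dhx58, or LGP2, was at 7.03 and 6.99 in wild-type, 6.78 and 6.93 in the exon 2 mutant, 6.12 and 6.38 in trap and 4.59 and 4.75 in the Hprt knockout. Dhx58 was lower in trap by -0.76 ± 0.10 and in the Hprt knockout by -2.34 ± 0.10, and the difference of -0.15 in the exon 2 mutant did not pass (adjusted p = 0.249). For both Ifih1 and Dhx58 the direction in the Hprt knockout was set by the filter.

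Usp18 and Trim25 act on the ubiquitin-like protein ISG15 and on sensor signalling. Usp18, which removes ISG15 from proteins and dampens the type I receptor, was at 11.98 and 11.91 in wild-type, 11.27 and 11.31 in the exon 2 mutant, 10.76 on both trap arrays and 4.08 and 4.53 in the Hprt knockout. Usp18 was lower in the Hprt knockout by -7.64 ± 0.13, a size that depends on the array's background, since it lay under the filter level there. The direction of that difference was set by the filter. Usp18 was lower in the exon 2 mutant by -0.65 ± 0.13 (adjusted p = 0.00485) and in trap by -1.18 ± 0.13 (adjusted p = 0.000588). Trim25, a ubiquitin ligase that acts on sensor signalling, lay above the filter level on every array, at 11.59 and 11.65 in wild-type, 11.20 and 11.29 in the exon 2 mutant, 11.55 and 11.48 in trap and 11.23 and 11.28 in the Hprt knockout. For Trim25 the exon 2 mutant and the Hprt knockout overlapped and lay below wild-type by -0.38 ± 0.06 and -0.37 ± 0.06 (adjusted p = 0.00146 and 0.000877). Its other probe sets gave -0.43 and -0.04 for the exon 2 mutant, so this difference of Trim25 was shared by 1 of them. The probe set used for Trim25 may match more than 1 gene.

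The transcription factors went different ways, and 3 of the 4 were higher in the exon 2 mutant than in wild-type (32.5% of all genes). Irf1, which drives many interferon gamma targets, was at 9.12 and 9.21 in wild-type, 9.72 and 9.91 in the exon 2 mutant, 9.42 and 9.54 in trap and a mean of 9.02 in the Hprt knockout. Irf1 was higher than wild-type by 0.65 ± 0.08 in the exon 2 mutant (adjusted p = 0.000493) and by 0.31 ± 0.08 in trap (adjusted p = 0.0177). The Hprt knockout differed by -0.14 (adjusted p = 0.154), and under cyclic loess by -0.39 (adjusted p = 0.00365). The trap call of Irf1 was lost without wild-type replicate 1 (0.27, adjusted p = 0.0979), without trap replicate 2 (0.25, adjusted p = 0.102) and under cyclic loess (0.23, adjusted p = 0.0548).

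Stat2, the part of the complex that carries its activation domain, was at 6.79 and 6.89 in wild-type, 7.78 and 7.76 in the exon 2 mutant, 7.41 and 7.43 in trap and 6.71 and 6.35 in the Hprt knockout. For Stat2 the exon 2 mutant was highest and trap next, above wild-type by 0.93 ± 0.11 (adjusted p = 0.000435) and 0.59 ± 0.11 (adjusted p = 0.00545), and a second probe set gave 0.80 and 0.59. Its difference of -0.31 in the Hprt knockout (adjusted p = 0.038) was lost under 9 alternatives, among them without wild-type replicate 1 (-0.36, adjusted p = 0.0686), without wild-type replicate 2 (-0.26, adjusted p = 0.157), without Hprt knockout replicate 2 (-0.13, adjusted p = 0.15), and without any exon 2 mutant array (adjusted p = 0.0556) or trap array (adjusted p = 0.0597). Irf9, which gives the complex its DNA binding, was at 8.83 and 8.93 in wild-type, 9.19 and 9.15 in the exon 2 mutant, 8.98 and 9.03 in trap and 6.92 and 6.83 in the Hprt knockout. Unlike Irf1 and Stat2, Irf9 was clearly lower in the Hprt knockout, which trap exceeded by 2.13 ± 0.06, and it was higher in the exon 2 mutant by 0.29 ± 0.06 (adjusted p = 0.00578). Irf7, the amplifier of interferon alpha genes, was at 9.29 and 9.09 in wild-type, 8.48 and 8.53 in the exon 2 mutant, 8.12 and 8.15 in trap and 5.37 and 6.10 in the Hprt knockout. Irf7 was the only transcription factor of the 4 that was lower in trap than in wild-type, by -1.06 ± 0.21 (adjusted p = 0.00676). In the exon 2 mutant its difference of -0.68 (adjusted p = 0.0277) was lost when any 1 of the 4 arrays compared was left out: -0.58 (adjusted p = 0.131) without wild-type replicate 1, -0.79 (adjusted p = 0.0569) without wild-type replicate 2, -0.66 (adjusted p = 0.0974) without exon 2 mutant replicate 1 and -0.71 (adjusted p = 0.0788) without exon 2 mutant replicate 2.

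The remaining members hold the IFI200 genes, which sense DNA in the nucleus and cytoplasm, and others with roles in cell death and interferon signalling. All 6 found were lower in the Hprt knockout, with a median of -3.33 (25.1% of all genes), and all 6 were lower in trap than in wild-type, with a median of -0.36 (14.6% of all genes). For Ifi202b and Ifi204 the direction in the Hprt knockout was set by the filter. Ifi202b was at 11.80 and 11.86 in wild-type, 11.01 and 11.03 in the exon 2 mutant, 11.60 and 11.57 in trap and 4.76 and 4.53 in the Hprt knockout. Here trap stayed close to wild-type and the exon 2 mutant lay 0.56 ± 0.08 below trap (adjusted p = 0.00111) and -0.81 ± 0.08 against wild-type (adjusted p = 0.00019). The probe set of Ifi202b may match more than 1 gene, and its trap call of -0.24 (adjusted p = 0.0444) was lost without any single array outside the Hprt knockout, with differences between -0.27 (without wild-type replicate 1, adjusted p = 0.1) and -0.21 (without wild-type replicate 2, adjusted p = 0.17).

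Ifi204 had the largest difference of any member in the exon 2 mutant. It was at 8.82 and 8.90 in wild-type, 7.70 and 7.02 in the exon 2 mutant, 8.09 and 8.26 in trap and 3.43 and 3.39 in the Hprt knockout. The exon 2 mutant arrays of Ifi204 differed from each other by more than those of any other member, but both lay below trap and wild-type, and the difference from wild-type was -1.50 ± 0.20 (adjusted p = 0.000692). In trap Ifi204 was lower by -0.69 (adjusted p = 0.029), a call lost when any 1 of the 4 arrays compared was left out: -0.73 (adjusted p = 0.0884) without wild-type replicate 1, -0.64 (adjusted p = 0.115) without wild-type replicate 2, -0.60 (adjusted p = 0.134) without trap replicate 1 and -0.77 (adjusted p = 0.0705) without trap replicate 2.

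Xaf1, which promotes cell death, was at 11.47 and 11.50 in wild-type and 7.81 and 7.74 in the Hprt knockout, and the exon 2 mutant (-0.27 ± 0.05) and trap (-0.29 ± 0.05) were lower than wild-type by nearly the same amount. Its second probe set gave -0.66 and -0.65 for these. Ifi35, a regulator of sensor signalling, was likewise lower by -0.42 ± 0.07 in the exon 2 mutant, -0.44 ± 0.07 in trap and -2.94 ± 0.07 in the Hprt knockout. Its probe set may match more than 1 gene, and another probe set gave -0.34, -0.42 and -2.60 in that order. Parp9 and Parp14, both members of the ADP-ribosyltransferase family, were lower in the Hprt knockout by -2.77 ± 0.07 and -2.85 ± 0.07. Parp9 was lower in trap by -0.65 ± 0.07 (adjusted p = 0.000421), while its -0.19 in the exon 2 mutant (adjusted p = 0.0481) was lost without each of the compared arrays, at -0.17 (adjusted p = 0.176) without wild-type replicate 1, -0.21 (adjusted p = 0.101) without wild-type replicate 2, -0.20 (adjusted p = 0.0985) without exon 2 mutant replicate 1 and -0.17 (adjusted p = 0.143) without exon 2 mutant replicate 2, and without either trap array (adjusted p = 0.0545). Parp14 differed by 0.07 in the exon 2 mutant, which did not pass (adjusted p = 0.387). In trap it was lower by -0.28 (adjusted p = 0.0154), a call lost without wild-type replicate 1 (-0.27, adjusted p = 0.0744), wild-type replicate 2 (-0.29, adjusted p = 0.0573) or trap replicate 2 (-0.20, adjusted p = 0.0864).

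**Figure D3:**
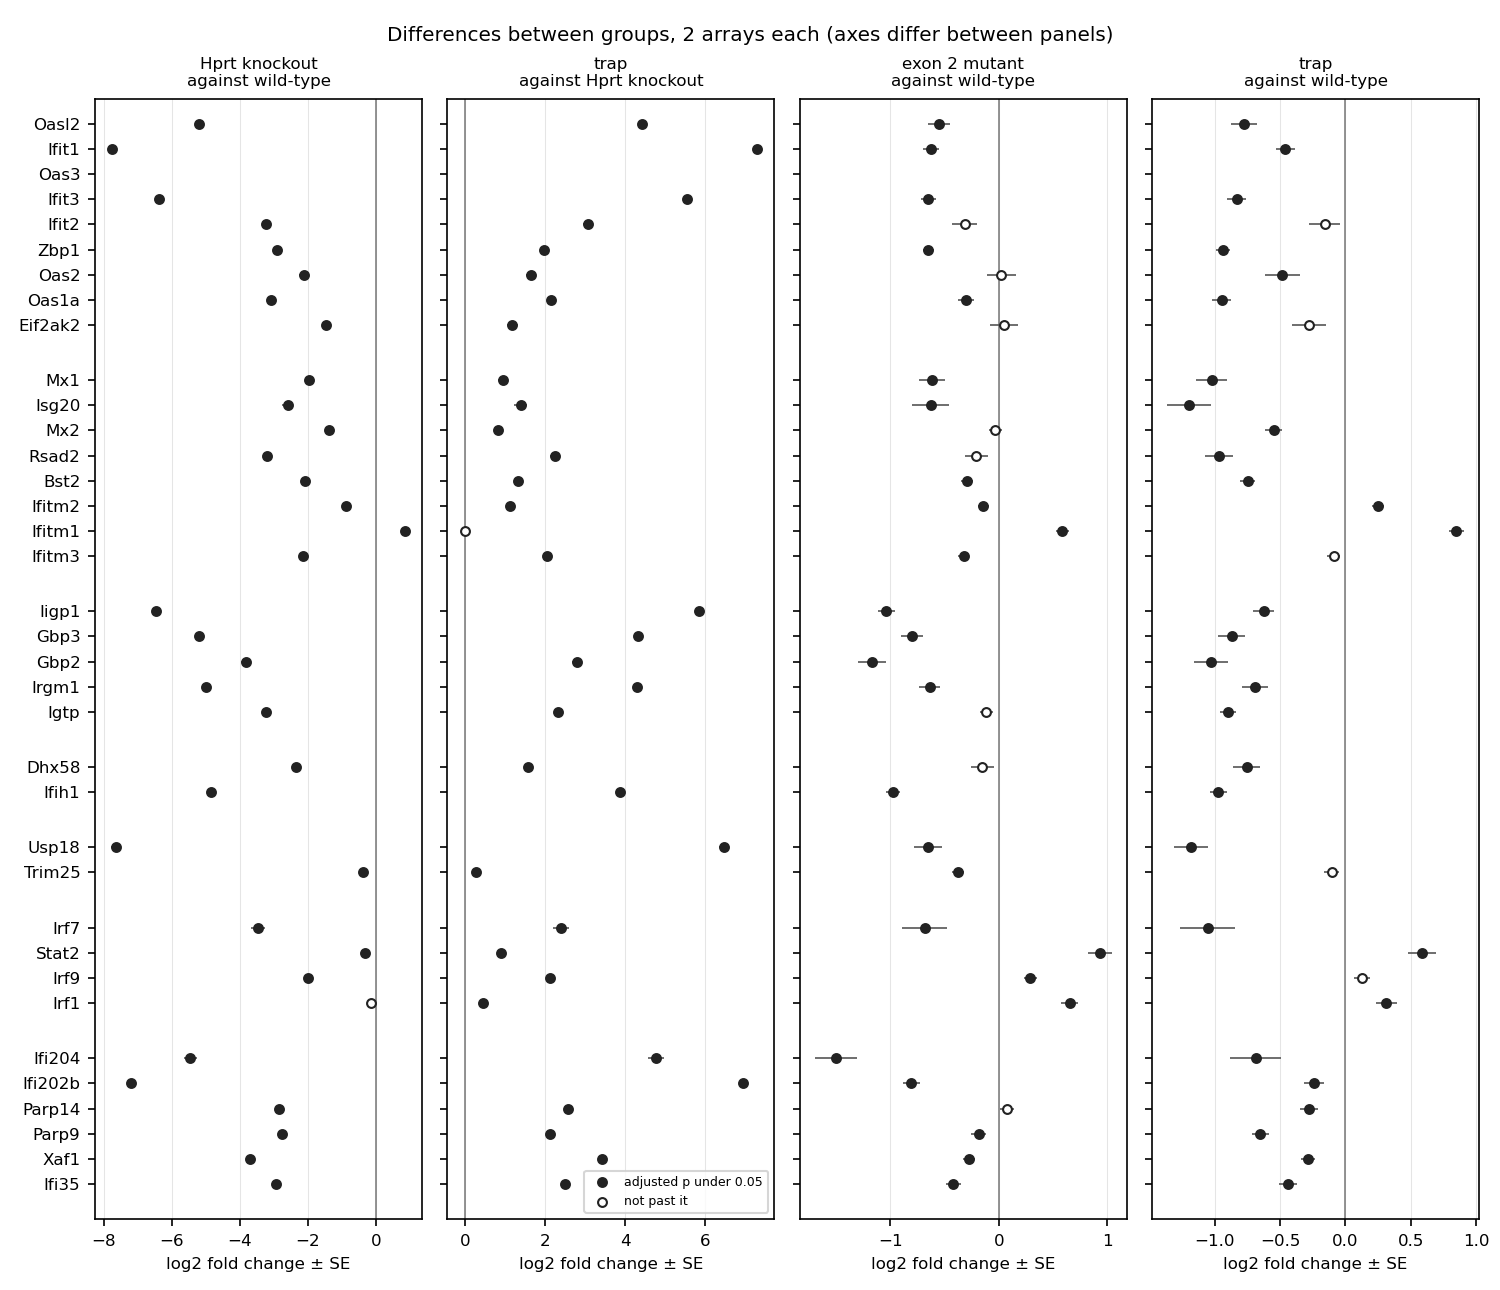
Log2 fold change ± SE (horizontal axes, scales differ between panels) of the tested members in 4 comparisons of 2 arrays against 2, with filled points for an adjusted p under 0.05 and rows ordered by class. The Hprt knockout differences reach -7.74 (Ifit1), those of the exon 2 mutant against wild-type lie between -1.50 (Ifi204) and 0.93 (Stat2), and those of trap against wild-type between -1.20 (Isg20) and 0.85 (Ifitm1).

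The exon 2 effect (exon 2 mutant minus wild-type) and the trap effect (trap minus Hprt knockout) were then compared directly. These 2 comparisons share no arrays. The wild-type line and the parent of the Hprt knockout are not given, so neither effect can be told apart from a difference between lines. The exon 2 effect was below the trap effect for 32 of 35 members, against 27.0% of all genes, and above it for Ifitm1, against 42.6% of all genes. The 32 include the 9 members that passed the filter only through the 6 arrays outside the Hprt knockout. The direction of their trap effect was set by the filter. Irf1 (0.20 ± 0.11, adjusted p = 0.153) and Stat2 (0.04 ± 0.16, adjusted p = 0.844) did not pass. Both were higher in each mutant than in its comparison group, by 0.65 and 0.93 in the exon 2 mutant and by 0.45 and 0.90 in trap. Irf9 rose in both as well, by 0.29 and 2.13, with a difference of -1.84 ± 0.08. All 21 fibroblast markers also had a lower exon 2 effect than trap effect, with a median difference of -4.79 against -2.45 for the members and 0.16 for all genes. For Lum and Fap the direction of the trap effect was set by the filter.

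**Figure D4:**
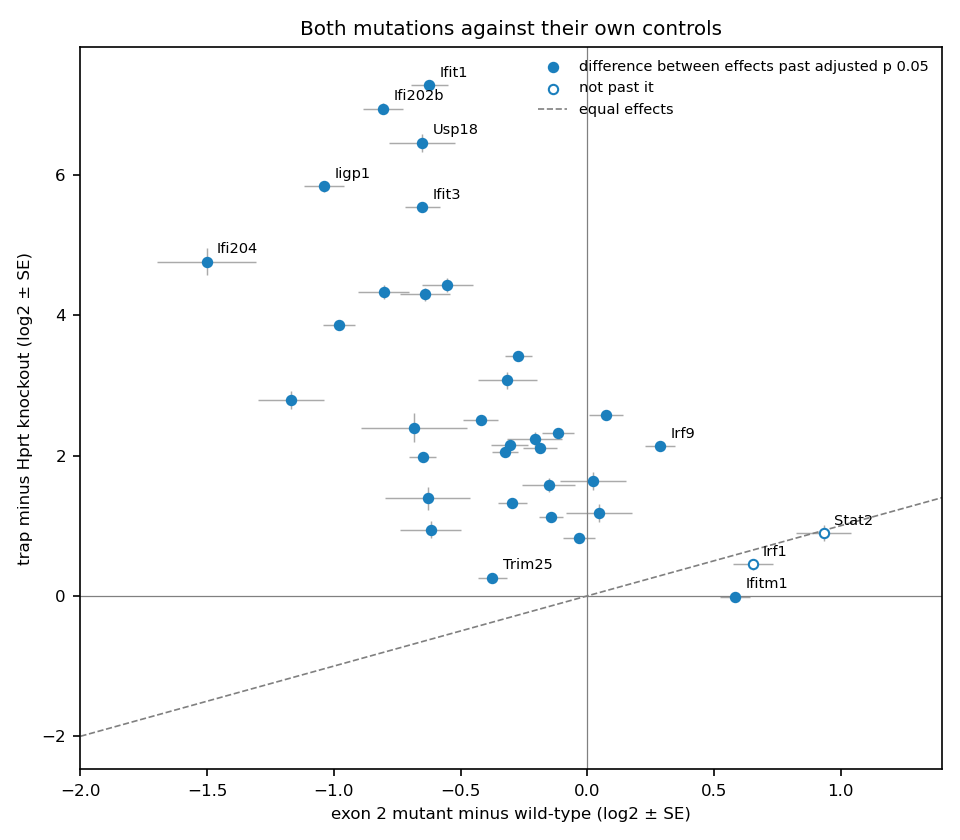
The exon 2 effect (exon 2 mutant minus wild-type, horizontal axis) and the trap effect (trap minus Hprt knockout, vertical axis) of each tested member, log2 ± SE, with the dashed line for equal effects and filled points where the difference passed an adjusted p of 0.05. The 23 members called lower in the exon 2 mutant lie upper left, while Stat2 and Irf1 lie near the line and Ifitm1 lies right of it.

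The remaining pairs of groups place the neighbours in the order of levels. The exon 2 mutant was higher than the Hprt knockout for 33 of 35 members, against 24.9% of all genes, and lower for Ifitm1, against 36.3% of all genes. The 33 again include the 9 members whose direction against the Hprt knockout was set by the filter. Trim25 did not pass. Between trap and exon 2 mutant, trap was higher for 7 members, against 24.7% of all genes, and lower for 15, against 24.5% of all genes. The members' median difference between them was -0.23, and the largest were Ifi204 (0.82), Igtp (-0.78), Rsad2 (-0.76) and Oas1a (-0.64). The 13 that did not pass were Ifit1, Ifit2, Ifit3, Oasl2, Eif2ak2, Gbp2, Gbp3, Irgm1, Ifih1, Irf7, Irf9, Ifi35 and Xaf1, which does not show that their levels were alike. The fibroblast markers were higher in trap for 10 of 21 and lower for 5.

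Upstream of these genes, most interferon genes lay below the filter level. Of 13 ligand genes 9 were found, and 8 of them did not pass the filter, among them Ifnb1, at means of 4.44 to 4.54, and Ifng, at 3.23 to 3.34. Ifnz was tested and was at a mean level of 6.70 for wild-type, 6.73 for the exon 2 mutant, 6.76 for trap and 6.21 for the Hprt knockout. It was lower in the Hprt knockout by -0.49 ± 0.10 (adjusted p = 0.0037), and neither Gtf2i mutant passed against wild-type.

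The 9 receptor and kinase genes found lay above the filter level on both arrays of every group, except Ifnlr1 in wild-type, with 1 array above it. Of 9 tested, 7 were lower in the Hprt knockout than in wild-type, with a median of -1.27 (25.1% of all genes were called lower), and 7 were higher in trap than in the Hprt knockout, with a median of 1.07 (26.6% of all genes). The type I receptor chain Ifnar1 was at 8.44 and 8.51 in wild-type, 8.08 and 8.06 in the exon 2 mutant, 8.62 and 8.58 in trap and 8.30 and 8.25 in the Hprt knockout. Ifnar1 was lower than wild-type by -0.20 ± 0.05 in the Hprt knockout (adjusted p = 0.0105) and by -0.40 ± 0.05 in the exon 2 mutant, its lowest group (adjusted p = 0.000675). Its partner Ifnar2 was lower in the Hprt knockout by -1.27 ± 0.05 and in the exon 2 mutant by -0.51 ± 0.05. The interferon gamma receptor chain Ifngr2 was at 8.29 and 8.30 in wild-type, 7.76 and 7.57 in the exon 2 mutant, 8.72 and 8.91 in trap and 6.66 and 6.52 in the Hprt knockout, so that trap was above wild-type by 0.52 ± 0.09 (adjusted p = 0.004) and the exon 2 mutant below it by -0.63 ± 0.09 (adjusted p = 0.00113). The other gamma chain, Ifngr1, was lower in the exon 2 mutant (-0.53) and the Hprt knockout (-1.03) and differed by 0.01 in trap. Il10rb, a chain shared with the interferon lambda receptor, had the largest fall of this list in the Hprt knockout, -3.33 ± 0.09.

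Jak1, the kinase that all these receptors use, exceeded its wild-type level in trap, by 0.35 ± 0.06 (adjusted p = 0.00456), and was lower in the exon 2 mutant, by -0.36 ± 0.06 (adjusted p = 0.0026). It was lower in the Hprt knockout by -1.58 ± 0.06, as was Jak2, by -1.76 ± 0.10. Tyk2 and the interferon lambda receptor chain Ifnlr1 went the other way, higher in the Hprt knockout by 0.59 ± 0.06 and 0.64 ± 0.16 and in the exon 2 mutant by 0.44 ± 0.06 and 0.60 ± 0.16. Ifnlr1 was at 5.45 and 5.36 in wild-type, near the filter level, so the sizes of its differences depend on the array's background.

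Of 9 tested negative regulators of the pathway, 4 were lower and 2 higher in the Hprt knockout, with a median of -0.07, beside 25.1% and 46.4% of all genes. The largest were Irf2, a repressor of interferon targets, at -1.63, and Socs1, which inhibits the JAK kinases, at -0.66. Irf2 lay under the filter level on both Hprt knockout and both exon 2 mutant arrays, so the size of its difference depends on the array's background. In the exon 2 mutant 4 were lower and 2 higher, beside 23.1% and 32.5% of all genes, among them Ptpn1 (-0.51) and Socs1 (-0.42). Against wild-type 3 were lower in trap, beside 14.6% of all genes, and 6 did not pass, with Samhd1, an enzyme that limits nucleotides for viruses, at -0.86. Of 13 tested genes of nucleic acid sensing, 8 were lower and 2 higher in the Hprt knockout, where 25.1% and 46.4% of all genes were. The largest were the receptors Tlr4 (-2.93) and Tlr3 (-2.11) and the adaptors Sting1 (-1.90) and Myd88 (-1.55). Tlr4 lay under the filter level on both Hprt knockout arrays, so the size of its difference also depends on the background. Its direction there was set by the filter. Lower in the exon 2 mutant were 5, among them Tlr4 (-0.74) and Sting1 (-0.34), and 1 was higher, beside 23.1% and 32.5% of all genes. In trap Tlr4 (0.70), Sting1 (0.73) and the kinase gene Ikbke (0.86) were higher than in wild-type and 2 of the 13 were lower, beside 26.5% and 14.6% of all genes.

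A wider list of 37 other interferon-induced genes gave 32 tested genes. In the Hprt knockout 27 were lower and 3 higher, with a median of -2.25 (25.1% and 46.4% of all genes), and trap was higher than the Hprt knockout for 26 and lower for 3 (26.6% and 41.8% of all genes). Of the 32, 9 lay below the filter level on both Hprt knockout arrays and passed it only through other arrays. Their direction against the Hprt knockout was thus in large part set by the filter, and Trim34a among them lay below it in wild-type too. Rtp4, a chaperone of receptors, was at 11.18 and 11.14 in wild-type, 11.24 and 11.35 in the exon 2 mutant, 10.98 and 10.91 in trap and 5.34 and 4.56 in the Hprt knockout. Only the Hprt knockout arrays stood apart for Rtp4. They differed from wild-type by -6.21 ± 0.22, whereas the exon 2 mutant (0.13, adjusted p = 0.638) and trap (-0.21, adjusted p = 0.477) did not pass. Rtp4 lay near or under the mean filter level of 5.35 in the Hprt knockout, so the size of that difference depends on the array's background. The chemokine Cxcl10 was lower in all 3 mutants, by -1.03 ± 0.11 in the exon 2 mutant, -1.68 ± 0.11 in trap and -4.88 ± 0.11 in the Hprt knockout. Of the 32, 15 were lower and 6 higher in the exon 2 mutant (23.1% and 32.5% of all genes), and 18 were lower and 2 higher in trap (14.6% and 26.5%), each against wild-type. Their medians were -0.24 and -0.47, beside -0.32 and -0.65 for the tested members.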

How the data were processed

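Total RNA of mouse embryonic stem cell cultures was hybridised to 8 arrays. The values are the log2 intensities of 45101 probe sets as the authors deposited them, made with RMA per the submitters' processing notes, with no version stated there. RMA equalises the distributions of the arrays, so a shift of most genes would be hidden, and it compresses differences of dim genes. Column medians were 5.96 to 6.02. Each array is a sample grouped by its genotype label, and precision is limited by having 2 arrays in each group.

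Probe sets were named by the platform table: 34945 had 1 symbol, 932 several and 9160 none, beside 64 controls. Each of 18193 genes took its probe set with the highest mean, a choice among several for 9010 genes and for 11 members. The filter stated in the results left 13819 genes. limma 3.58.1 in R 4.3.3 fitted 4 group means to all 8 arrays (4 residual degrees of freedom, 6.86 after moderation), with two-sided p-values adjusted by Benjamini-Hochberg over all genes tested per comparison and a threshold of 0.05. The procedure was tested on simulated data. No detection calls were used.

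Members and lists (5 of pathway genes, 5 of cell markers) were chosen with earlier results of these data known. All members were named, and from each other list up to 4 genes with the largest differences past the threshold per comparison, while ligand, receptor and kinase genes were free to be named. Of the other marker lists, endothelial genes gave 1 lower and 2 higher of 3 tested, and primitive endoderm genes 4 higher of 6 tested, in the Hprt knockout against wild-type. In trap against wild-type 3 of these 6 were lower and 2 higher, and 1 of the 3 endothelial genes was higher. For the exon 2 mutant, 2 endothelial genes were higher, and the endoderm genes stand in the results. Alternatives covered normalization, filter, probe set choice, arrays in the fit, variance model, replicate block and leaving out each array. Leaving out both Hprt knockout arrays was chosen after seeing the data.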

Additional observations from a re-analysis of the deposited data

Results flagged for a closer look

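The exon 2 effect (exon 2 mutant minus wild-type) and the trap effect (trap minus Hprt knockout) were set against each other for each of the 35 tested members. Their difference passed an adjusted p of 0.05 by limma for 33 of them, and a value below 0 means that the exon 2 effect was the lower of both. The 33 include the 9 members that passed the filter only through the 6 arrays outside the Hprt knockout, so the filter set the direction of their trap effect. The contrasts share no arrays, and the Hprt knockout arrays, which carried the least fibroblast signal, enter the trap effect only; their part in these differences was not tested. Among the IFIT and OAS effectors the log2 difference was -7.90 for Ifit1, -6.19 for Ifit3, -4.98 for Oasl2, -3.39 for Ifit2, -2.63 for Zbp1, -2.45 for Oas1a, -1.62 for Oas2 and -1.13 for Eif2ak2. For the MX, viperin, tetherin, IFITM and ISG20 effectors it was -2.44 for Rsad2, -2.38 for Ifitm3, -2.02 for Isg20, -1.62 for Bst2, -1.56 for Mx1, -1.26 for Ifitm2, -0.86 for Mx2 and 0.59 for Ifitm1. The GTPases had log2 differences of -6.88 for Iigp1, -5.13 for Gbp3, -4.93 for Irgm1, -3.96 for Gbp2 and -2.43 for Igtp. The RNA sensors had -4.84 for Ifih1 and -1.73 for Dhx58. In the ISG15 system the difference was -7.11 for Usp18 and -0.64 for Trim25. The transcription factors that passed had -3.08 for Irf7 and -1.84 for Irf9. In the last class the values were -7.75 for Ifi202b, -6.27 for Ifi204, -3.70 for Xaf1, -2.92 for Ifi35, -2.50 for Parp14 and -2.30 for Parp9. Ifitm1 was the member whose exon 2 effect was the higher of both, and Irf1 and Stat2 did not pass.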

How the results depend on the processing

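The counts of called members kept their direction under every alternative run. Cyclic loess scaling moved the members' median to -0.42 in the exon 2 mutant and -3.18 in the Hprt knockout (each against wild-type), to 2.41 in trap relative to Hprt knockout and to -2.73 for the difference of effects. It moved the median of all genes from 0.16 to 0.00, from -0.13 to 0.01 and from 0.16 to -0.03 in the last 3. Relative to all genes the members' median was 2.36 as deposited and 2.40 under loess in trap against Hprt knockout, and -3.10 and -3.18 in the Hprt knockout. The share of all calls that were higher went from 58.4% to 47.7% for the exon 2 mutant, from 38.9% to 52.5% for trap against Hprt knockout, from 64.9% to 49.9% for Hprt knockout, from 64.6% to 54.1% for trap against wild-type and from 61.2% to 48.1% for the difference. Loess reversed, among members not past the threshold, Oas2 (-0.084), Eif2ak2 (-0.065) and Parp14 (-0.019) in the exon 2 mutant, Ifitm1 in trap against Hprt knockout (0.14), and Irf1 (-0.089) and Stat2 (-0.16) in the difference. With 1 array left out, Oas2 ranged from -0.073 to 0.12 and Mx2 from -0.089 to 0.024 in the exon 2 mutant, Ifitm1 from -0.062 to 0.040 in trap against Hprt knockout, and Stat2 from -0.14 to 0.22 in the difference. The members' median then ranged from 2.18 to 2.39 for trap against Hprt knockout, with 2.39 without Hprt knockout replicate 2, and the count of members with a higher exon 2 effect from 1 to 2. The second was Irf1, without exon 2 mutant replicate 1 (0.29, adjusted p = 0.0462). Lower members then ranged from 18 to 23 in the exon 2 mutant, 22 to 26 in trap against wild-type and 32 to 33 in the Hprt knockout. Under the other settings they ranged from 21 to 26, 25 to 27 and 32 to 34, and 26 was the count under loess, where Ifit2, Rsad2 and Igtp were gained in the exon 2 mutant. Against wild-type in trap, Trim25 passed with the mean of probe sets (-0.15, adjusted p = 0.0427) and Ifitm3 with a trended, robust variance (-0.089, adjusted p = 0.0457). The other causes were not tested.

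The replicate numbers did not pair the arrays: deviations of same-numbered arrays correlated at -0.28 to 0.175. The replicate block gave 22 lower and 4 higher members for the exon 2 mutant, 34 higher for trap against Hprt knockout, 33 lower for Hprt knockout and 25 lower for trap against wild-type. The 10 members that lay under the filter level on the Hprt knockout arrays have differences set in part by the array's background there.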

Other observations

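Ddx58, the symbol under which the probe table lists the RNA sensor RIG-I, was not counted among the members because no table given links it to the listed symbol Rigi. Its mean log2 level was 10.15 for wild-type, 10.33 for the exon 2 mutant, 10.09 for trap and 8.86 for the Hprt knockout. Ddx58 was lower in the Hprt knockout than in wild-type by -1.30 ± 0.05 (limma, adjusted p = 5.66e-07) and higher in trap than in the Hprt knockout by 1.23 ± 0.05. In the exon 2 mutant it exceeded wild-type by 0.18 ± 0.05 (adjusted p = 0.0162), and trap differed from wild-type by -0.07, which did not pass (adjusted p = 0.312). These values are of the brightest probe set. The other probe sets of Ddx58 gave 0.67 and 0.88 for the exon 2 mutant against wild-type. For trap they gave -0.08 and 0.43, and for the Hprt knockout -0.28 and -1.56.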
